A study of Mus musculus with 6 samples.

Results

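The 10 genes described here encode the TGF-beta and activin ligands (Tgfb1, Tgfb2, Tgfb3, Inhba and Inhbb), the follistatins that bind activins (Fst and Fstl3) and the TGF-beta receptors (Tgfbr1, Tgfbr2 and Tgfbr3). They were chosen by gene symbol from the 27179 genes of the count table, all 10 were found, and all 10 were among the 14855 genes with enough counts to test. Gene expression was measured by bulk RNA sequencing in cancer-associated fibroblasts (CAFs) sorted from 3 mammary tumors of raGFP-Wnt1 mice. These mice carry a Wnt1 transgene under the MMTV promoter, which is active in mammary epithelium, together with 1 copy of a knocked-in nuclear GFP reporter at Pdgfra. Both groups share the transgene, the reporter and the mammary tumor as their source, and no agent was given. The ages of the mice are not stated in the sources used here. From each tumor the GFP+ cells were split by flow cytometry into CD34 negative and CD34 positive CAFs, which gave 3 libraries per group. GFP marks cells that express Pdgfra, so CAFs without it were not sampled.

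TGF-beta is secreted in a latent form that is held in the matrix until it is released, for example by integrins. The released ligand assembles the type II receptor Tgfbr2 with the type I receptor Tgfbr1, which phosphorylates SMAD proteins that enter the nucleus, while Tgfbr3 (betaglycan) presents ligand. Activins, dimers of the Inhba and Inhbb products, use their own receptors but the same SMADs, and follistatins bind them in the extracellular space. In fibroblasts this pathway is best known for inducing contractile and matrix genes, the program of myofibroblasts.

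The libraries held 16238059 to 86609267 counts and had counts for 14314 to 19220 genes, with the fewest genes in CD34 negative library 3. Library numbers are tumor numbers throughout. The sort was visible in Cd34 itself, which averaged 948 CPM in the positive and 74.3 CPM in the negative libraries, where CPM is the count scaled to library size and composition. Cd34 differed by -3.63 ± 0.44 on the log2 scale (SE, n = 3 per group, limma-voom adjusted p = 0.0414). Pdgfra averaged 386 and 428 CPM, and did not pass (adjusted p = 0.785, limma-voom). Summed fibroblast markers took 69900 to 88500 CPM of the library total in CD34 negative and 76800 to 96000 in CD34 positive libraries. Leukocyte markers summed to at most 19.4 CPM in any library.

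Without a term for the tumor, which the study's methods do not mention, none of the 10 genes passed an adjusted p of 0.05 in limma-voom, where 0.121% of all tested genes passed. An unadjusted p under 0.05 was reached by 7 of them, 5 higher and 2 lower in CD34 negative CAFs, against 14.3% of all tested genes (7.23% higher and 7.10% lower). On the same libraries edgeR called 0 of the 10, against 0.0606% of all tested genes, and DESeq2 called 5, against 4.54%. Since both fractions of a pair came from 1 tumor, the tumor was also fitted as a block. With the block 4 of the 10 genes were higher in CD34 negative CAFs (Tgfb1, Inhba, Inhbb and Fstl3), against 4.32% of all tested genes. Another 2 were lower (Fst and Tgfbr3), against 4.25% of all tested genes. The median log2 fold change without the block was 0.77 over the 10 genes and -0.03 over all tested genes. Fold changes are CD34 negative over CD34 positive, and "rose" and "fell" below refer to CD34 negative CAFs in the fit with the block.

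**Figure D1:**
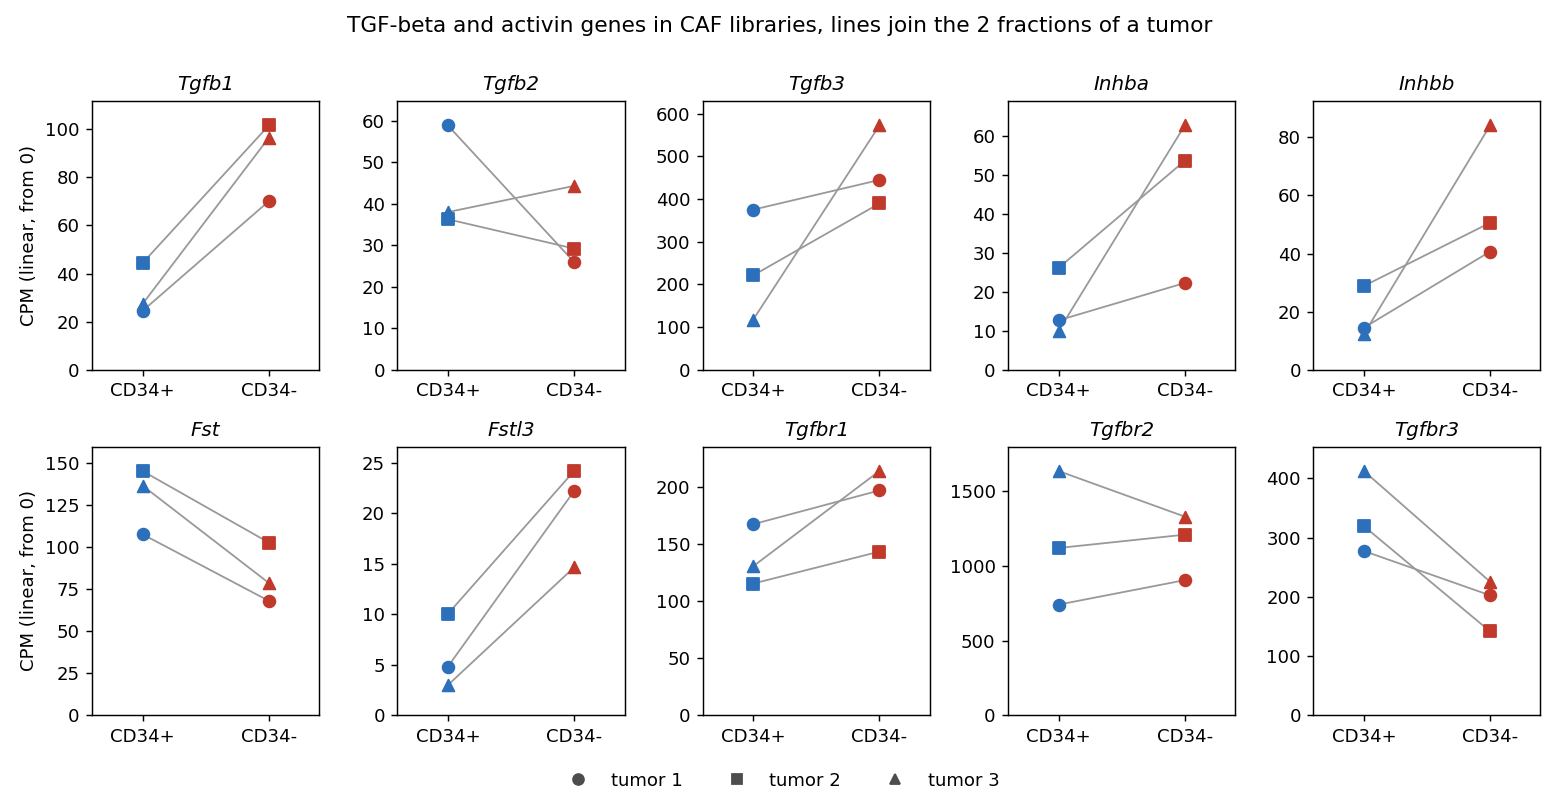
Level of each of the 10 genes in the 6 libraries, in CPM on linear axes that start at 0, with CD34 positive libraries in blue and CD34 negative libraries in red. Marker shape gives the tumor and a line joins the fractions of 1 tumor. The lines of Tgfb1, Tgfb3, Inhba, Inhbb, Fstl3 and Tgfbr1 go up in all 3 tumors, those of Fst and Tgfbr3 go down in all 3, and those of Tgfb2 and Tgfbr2 are mixed.

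Among the TGF-beta ligands, Tgfb1, the isoform most widely studied in fibrosis and cancer stroma, stood at 70.0, 101.5 and 96.4 CPM in CD34 negative libraries 1, 2 and 3 and at 24.5, 44.4 and 27.4 CPM in CD34 positive libraries 1, 2 and 3. Every negative library lay above every positive one. Without the block the difference was 1.39 ± 0.27 on the log2 scale (SE, adjusted p = 0.0811), and Tgfb1 rose by 1.45 ± 0.17 with the block (adjusted p = 0.00167, limma-voom). Within tumors 1, 2 and 3 the log2 differences were 1.51, 1.19 and 1.81. Over the 24 alternatives its adjusted p ran from 2.83e-11 (DESeq2 with the block) to 0.382, and it passed in all 6 fits with a block. It was also the only one of the 10 genes to pass with sample quality weights and no block, against 1.08% of all tested genes.

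Tgfb3, the isoform with the most counts here, stood at 444.5, 389 and 572 CPM in the negative libraries and at 375, 221 and 118 CPM in the positive ones. The groups did not overlap, yet the difference varied from tumor to tumor, at 0.25, 0.82 and 2.28 on the log2 scale in tumors 1, 2 and 3. Neither the log2 fold change without the block, 1.11 ± 0.40, nor that with it, 1.12 ± 0.30, passed in limma-voom (adjusted p = 0.275 and 0.0548). Over the alternatives the adjusted p ran from 5.25e-06 (limma-voom with the block, without tumor 2) to 0.656. The fit at the low end rests on 1 residual degree of freedom per gene and the spread pooled over genes. With the block, leaving out tumor 1 or tumor 2 brought it past the threshold, whereas without tumor 3 the log2 fold change was 0.52. Tumor 3 holds the negative library with the fewest detected genes. In fits without the block, the log2 fold change was 0.94 without that library and 0.66 without positive library 3. The cause of the spread between tumors was not tested.

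Tgfb2, which binds Tgfbr2 poorly without betaglycan, had 25.9, 29.2 and 44.3 CPM in the negative libraries and 58.8, 36.2 and 38.0 CPM in the positive ones. The groups overlapped, and the within-tumor log2 differences of -1.18, -0.31 and 0.22 were of mixed sign. Tgfb2 differed by -0.38 ± 0.27 (adjusted p = 0.548, limma-voom). Of the alternatives only the block without tumor 3 put it past the threshold, at -0.72 (adjusted p = 0.0431, limma-voom, against up to 0.969 in the others).

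Of the activin subunits, Inhba, whose product forms activin A, had 22.3, 53.6 and 62.7 CPM in the negative libraries and 12.7, 26.1 and 9.98 CPM in the positive ones. Negative library 1 lay below positive library 2, so the groups overlapped, although the negative library was the higher in each tumor, by 0.81, 1.04 and 2.65 on the log2 scale. Without the block the estimate was 1.22 ± 0.51 (adjusted p = 0.331), and Inhba rose by 1.45 ± 0.30 with the block (adjusted p = 0.0182, both limma-voom). The adjusted p ran from 3.12e-05 (limma-voom with the block, without tumor 2) to 0.664 over the alternatives, and edgeR with the block gave 0.0815. The estimate without the block was 0.71 when tumor 3 was left out and 1.91 when positive library 2 was left out. With the block it was 2.04 without tumor 2 and 0.97 without tumor 3, and it passed in both.

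Inhbb, whose product forms activin B, had 40.7, 50.6 and 84.0 CPM in the negative libraries and 14.5, 28.8 and 12.3 CPM in the positive ones. Here the groups did not overlap. The within-tumor log2 differences were 1.49, 0.81 and 2.77. Without the block the log2 fold change was 1.46 ± 0.39 (adjusted p = 0.155), and Inhbb rose by 1.50 ± 0.33 with it (adjusted p = 0.0228, both limma-voom). Over the alternatives the adjusted p ran from 9.64e-08 (limma-voom with the block, without tumor 2) to 0.441, with 0.0594 in edgeR with the block. Leaving out tumor 2 gave 2.31 and leaving out tumor 3 gave 1.00 with the block, both past the threshold, and without the block leaving out tumor 3 gave 0.96.

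The promoters of the 3 ligand genes that rose with the block, and of Tgfb2, which did not pass, are shown to compare what lies upstream of ligands that did and did not pass. Of the 10 genes, 7 matched the RefSeq promoter table for GRCm38.p6, and no promoter was matched for Tgfb3, Fst and Tgfbr3. Each sequence below is the 250 bases before a transcript start, 5′ to 3′ on the strand of the gene, with capitals marking the motifs named after them, on either strand. The Tgfb1 window is chr7:25686752-25687001 on the plus strand and ends at the start of the gene. The Inhbb window, chr1:119422249-119422498 on the minus strand, also ends there. The windows of Inhba (chr13:16011601-16011850, plus strand) and Tgfb2 (chr1:186705990-186706239, minus strand) precede a transcript start inside the span of the gene, and that of Tgfb2 overlaps an exon of Gm29491.
Tgfb1: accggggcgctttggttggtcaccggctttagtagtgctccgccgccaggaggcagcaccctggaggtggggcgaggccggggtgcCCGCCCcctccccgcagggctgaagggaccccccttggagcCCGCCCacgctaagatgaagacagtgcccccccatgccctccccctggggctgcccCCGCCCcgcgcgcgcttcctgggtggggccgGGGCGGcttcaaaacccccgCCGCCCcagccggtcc
Inhba: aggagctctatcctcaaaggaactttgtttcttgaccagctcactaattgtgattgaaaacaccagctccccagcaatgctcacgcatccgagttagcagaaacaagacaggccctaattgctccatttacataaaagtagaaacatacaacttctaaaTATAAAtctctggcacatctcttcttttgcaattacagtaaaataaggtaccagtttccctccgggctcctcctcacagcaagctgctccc
Inhbb: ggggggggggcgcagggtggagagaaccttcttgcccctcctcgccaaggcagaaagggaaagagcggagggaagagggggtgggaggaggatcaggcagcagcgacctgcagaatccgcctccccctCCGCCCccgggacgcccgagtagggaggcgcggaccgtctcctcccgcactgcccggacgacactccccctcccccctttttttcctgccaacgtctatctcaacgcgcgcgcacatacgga
Tgfb2: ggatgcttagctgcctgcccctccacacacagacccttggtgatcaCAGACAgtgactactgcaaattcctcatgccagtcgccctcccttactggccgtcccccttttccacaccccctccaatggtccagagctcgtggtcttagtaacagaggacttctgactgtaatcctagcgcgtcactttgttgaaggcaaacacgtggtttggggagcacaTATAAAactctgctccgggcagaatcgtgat

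The 4 windows differed in composition. That of Tgfb1 was 75.2% G or C and held 5 GC boxes (GGGCGG), at 164, 123, 67, 36 and 16 bases before the start, with no TATA box (TATAAA). That of Inhbb was 68.0% G or C, with 1 GC box at 122 bases. The Inhba window was only 43.2% G or C and held a TATAAA 91 bases before the start. The Tgfb2 window, at 53.6%, held a TATAAA at 31 bases and a CAGACA, the element described for SMAD binding, at 204 bases. Of the windows not printed, that of Fstl3, which rose, held 4 GC boxes, a TATAAA at 29 bases and a CAGACA at 162 bases. A window of Tgfbr1, which did not pass, held 2 GC boxes, and another held a CAGACA at 203 bases. The Tgfbr2 window held none of these motifs. Searched on both strands, GGGCGG was found in 32.7% of the 32851 promoters of the table, TATAAA in 12.4% and CAGACA in 17.1%, and the median G or C content was 52.4%. The AP-1 element TGANTCA (6.75% of all promoters) and the cyclic AMP element TGACGTCA (1.55%) had no match in the windows of the 7 genes. No match overlapped another in the 4 printed windows, and a match is a description of sequence only.

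Positions in GRCm38.p6 were taken from RefSeq, where all 10 genes are protein coding. Tgfb1 spans chr7:25687002-25705077, Tgfb3 chr12:86056743-86079041 and Tgfb2 chr1:186622787-186709697. Inhba lies at chr13:16004256-16031609 and Inhbb at chr1:119415463-119422248. Fst and Fstl3 lie at chr13:114452262-114458989 and chr10:79777274-79782630. The receptor genes lie at chr4:47353222-47414926 (Tgfbr1), chr9:116087695-116175363 (Tgfbr2) and chr5:107106567-107289629 (Tgfbr3). Fstl3 overlaps Prss57 on the opposite strand, which had 38 counts in all libraries together against 3890 for Fstl3. Tgfb2, Inhba, Fst, Tgfbr1, Tgfbr2 and Tgfbr3 also overlap noncoding genes or pseudogenes, none of which is among the counted genes. Whether counting used strand is not stated in the sources used here.

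The follistatins moved in opposite directions. Fst, the main soluble activin antagonist, stood at 68.0, 103 and 78.7 CPM in the negative libraries and at 108, 145 and 136.5 CPM in the positive ones. All 3 negative libraries lay below all 3 positive ones. The difference without the block was -0.65 ± 0.21 on the log2 scale (adjusted p = 0.221), and Fst fell by 0.65 ± 0.13 on the log2 scale with the block (adjusted p = 0.0165, both limma-voom). Its within-tumor differences, -0.66, -0.50 and -0.79, were the most even of the 6 genes that passed. The adjusted p ran from 0.000659 to 0.526 over the alternatives, and Fst passed in all 6 fits with a block.

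Fstl3, a follistatin relative that also binds activins, was the least abundant follistatin, at 22.2, 24.2 and 14.6 CPM in the negative libraries and 4.83, 10.0 and 3.00 CPM in the positive ones. The groups did not overlap. The log2 fold change was 1.56 ± 0.44 (adjusted p = 0.171), and Fstl3 rose by 1.55 ± 0.29 with the block (adjusted p = 0.0115, both limma-voom). The within-tumor log2 differences were 2.19, 1.27 and 2.28, and the adjusted p over the alternatives ran from 1.76e-06 to 0.408. Without the block, the log2 fold change was 2.48 when positive library 2 was left out and 2.36 when tumor 2 was left out. Like Fst, it passed in all 6 fits with a block.

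Among the receptors, Tgfbr2, the type II receptor that binds ligand first, stood at 905, 1209 and 1330.0 CPM in the negative libraries and at 741, 1120.0 and 1635 CPM in the positive ones. The spread between tumors was larger than that between the fractions, and the within-tumor log2 differences were 0.29, 0.11 and -0.30. The log2 fold change was 0.06 ± 0.31 (adjusted p = 0.951, limma-voom), and its sign changed with the test, being -0.02 in edgeR and -0.03 in DESeq2. Tgfbr2 was the only one of the 10 genes whose sign changed among the 24 alternatives.

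Tgfbr1, the type I receptor kinase (ALK5), had 197, 143.5 and 214 CPM in the negative libraries and 167.5, 115.5 and 131 CPM in the positive ones. It was the higher in the negative library of each tumor, by 0.23, 0.31 and 0.71 on the log2 scale, but the groups overlapped. At a log2 fold change of 0.42 ± 0.22 it did not pass without the block (adjusted p = 0.431, limma-voom), nor under any of the alternatives, where the adjusted p ran from 0.0824 to 0.79.

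Tgfbr3, the co-receptor betaglycan, stood at 203, 142 and 226 CPM in the negative libraries and at 277, 319 and 412 CPM in the positive ones. Every positive library lay above every negative one. The log2 fold change was -0.83 ± 0.24 (adjusted p = 0.177), and Tgfbr3 fell by 0.83 ± 0.15 with the block (adjusted p = 0.0114, both limma-voom). Its within-tumor log2 differences were -0.45, -1.17 and -0.87. The adjusted p ran from 0.000118 to 0.666 over the alternatives. The call with the block did not hold without tumor 2 (-0.67, adjusted p = 0.063, limma-voom) and was at 0.052 in edgeR with the block. As these were bulk samples, fewer cells that express a gene and less RNA of it per cell cannot be told apart.

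**Figure D2:**
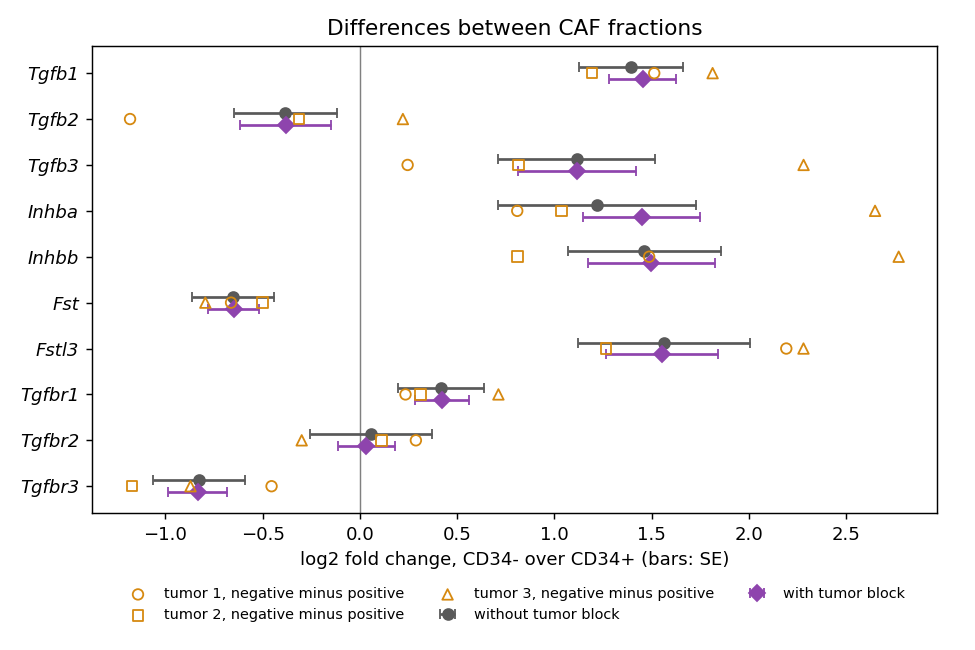
Log2 fold change of each of the 10 genes, CD34 negative over CD34 positive, on a linear axis. Filled circles and diamonds are the limma-voom estimates without and with the tumor block, with bars of 1 SE, and open symbols are the differences within tumors 1, 2 and 3. The open symbols of Tgfb3, Inhba and Inhbb lie farthest apart, with tumor 3 the largest, and those of Fst and Tgfbr1 lie close together.

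Counted by overlap of CPM, 4 of the 10 genes were higher in every CD34 negative library than in any positive one (Tgfb1, Tgfb3, Inhbb and Fstl3), against 10.4% of all tested genes. The other direction held for 2 (Fst and Tgfbr3), against 10.0% of all tested genes. The sign was the same in all 3 tumors for 8 of the 10 genes, 6 higher and 2 lower, where 22.8% and 23.4% of all tested genes were higher and lower in all 3. Of the 6 genes called with the block, edgeR with the block called 3 (Tgfb1, Fst and Fstl3), against 3.87% of all tested genes. DESeq2 with the block called those 6 and Tgfb3, against 11.6%.

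Levels were compared between genes per length, as RPKM (CPM per kilobase of gene length in the count table). In CD34 negative CAFs Tgfbr2 was the most abundant, at 239.7 ± 45.7 RPKM (mean ± SD, n = 3), followed by Tgfb3 at 138.5 ± 27.7 and Tgfb1 at 42.7 ± 8.07. Next came Fst (35.6 ± 7.59), Tgfbr1 (32.6 ± 6.50), Tgfbr3 (31.4 ± 7.16) and Inhba (30.2 ± 13.9), whose ranges overlapped with their neighbors in that order. The lowest were Inhbb (13.7 ± 5.34), Fstl3 (10.4 ± 2.57) and Tgfb2 (7.01 ± 2.07). Between neighbors, the ranges were apart only from Tgfbr2 to Tgfb3 and from Tgfb3 to Tgfb1.

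In CD34 positive CAFs Tgfbr2 (243 ± 93.8 RPKM) and Tgfb3 (70.3 ± 38.2) also led, and Tgfbr3 (55.6 ± 11.4) and Fst (55.5 ± 8.42) came next. Tgfb1 stood in sixth place at 15.3 ± 5.12, after Tgfbr1 at 24.3 ± 4.72. Inhba (10.6 ± 5.66), Tgfb2 (9.38 ± 2.66), Inhbb (4.36 ± 2.11) and Fstl3 (3.05 ± 1.87) followed. The ranges of neighbors were apart between Tgfbr2 and Tgfb3, between Fst and Tgfbr1 and between Tgfb2 and Inhbb, and overlapped elsewhere in the order.

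**Figure D3:**
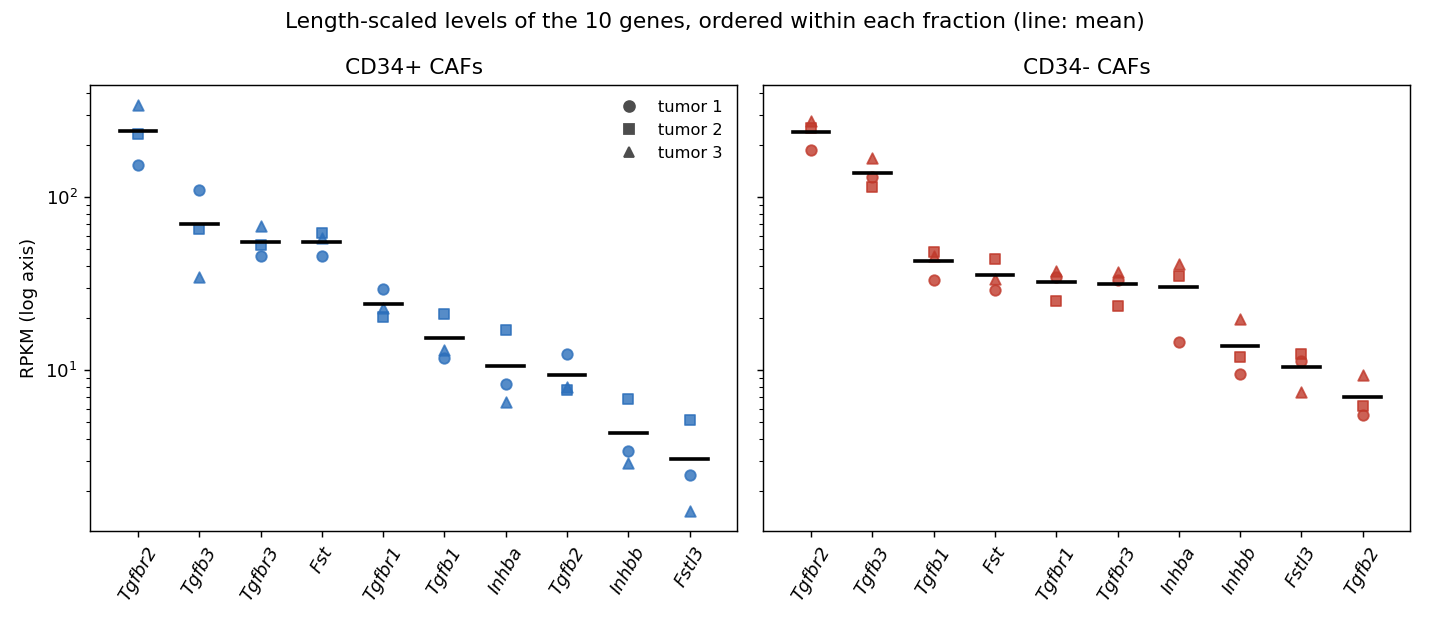
RPKM of the 10 genes on a log axis, ordered by mean within CD34 positive (blue) and CD34 negative (red) CAFs. Points are libraries, with marker shape for the tumor, and lines are means over 3 libraries. Tgfbr2 and Tgfb3 come first in both panels, and Tgfb1 moves from the sixth to the third place in CD34 negative CAFs.

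The makeup of each family was compared within libraries, where the scaling between libraries cancels. Of the summed RPKM of the 3 TGF-beta genes, Tgfb3 took 77.1, 67.8 and 75.3% in the negative libraries and 82.1, 69.4 and 62.2% in the positive ones. Tgfb1 took 19.6, 28.6 and 20.5% in the former and 8.68, 22.5 and 23.4% in the latter. The Tgfb2 share was 3.22, 3.64 and 4.17% in the negative and 9.22, 8.14 and 14.4% in the positive libraries. Thus Tgfb3 held most of the TGF-beta RNA in each library, and only the Tgfb2 share separated the groups, at 3.68 ± 0.476% and 10.6 ± 3.33% (SD, n = 3). An exact two-sided permutation test over libraries gave 0.1 for the Tgfb2 share, the smallest p that 3 against 3 allows, and 0.175 after adjustment over the 7 shares and ratios tested. The exact p was 0.6 for the Tgfb1 share and 0.8 for the Tgfb3 share (0.7 and 0.8 adjusted), and the sign of the Tgfb1 difference turned without positive library 1 (-0.0462 percentage points) and that of Tgfb3 without positive library 3 (-2.32).

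The ratio of Inhba to the sum of both follistatins, on RPKM, was 0.360, 0.623 and 0.995 in the negative libraries and 0.171, 0.254 and 0.109 in the positive ones. Fst exceeded Fstl3 by a ratio of 2.56, 3.55 and 4.49 in the former and by 18.6, 12.1 and 38.0 in the latter. Both ratios separated the groups without overlap, at 0.659 ± 0.319 against 0.178 ± 0.0728 and at 3.54 ± 0.965 against 22.9 ± 13.5. The difference in the former, 0.481, was 0.313 without negative library 3, and that in the latter, -19.4, was -11.8 without positive library 3. Tgfbr3 relative to Tgfbr2 was 0.177, 0.0927 and 0.134 in the negative libraries and 0.296, 0.225 and 0.199 in the positive ones, also without overlap. Each of these 3 ratios reached the exact permutation p of 0.1 that is the smallest possible, 0.175 adjusted. Tgfbr1 relative to Tgfbr2 overlapped, at 0.14 ± 0.0421 and 0.115 ± 0.0664 (exact permutation p = 0.6, 0.7 adjusted). The Tgfb2 share and these ratios restate in part the single-gene values above.

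**Figure D4:**
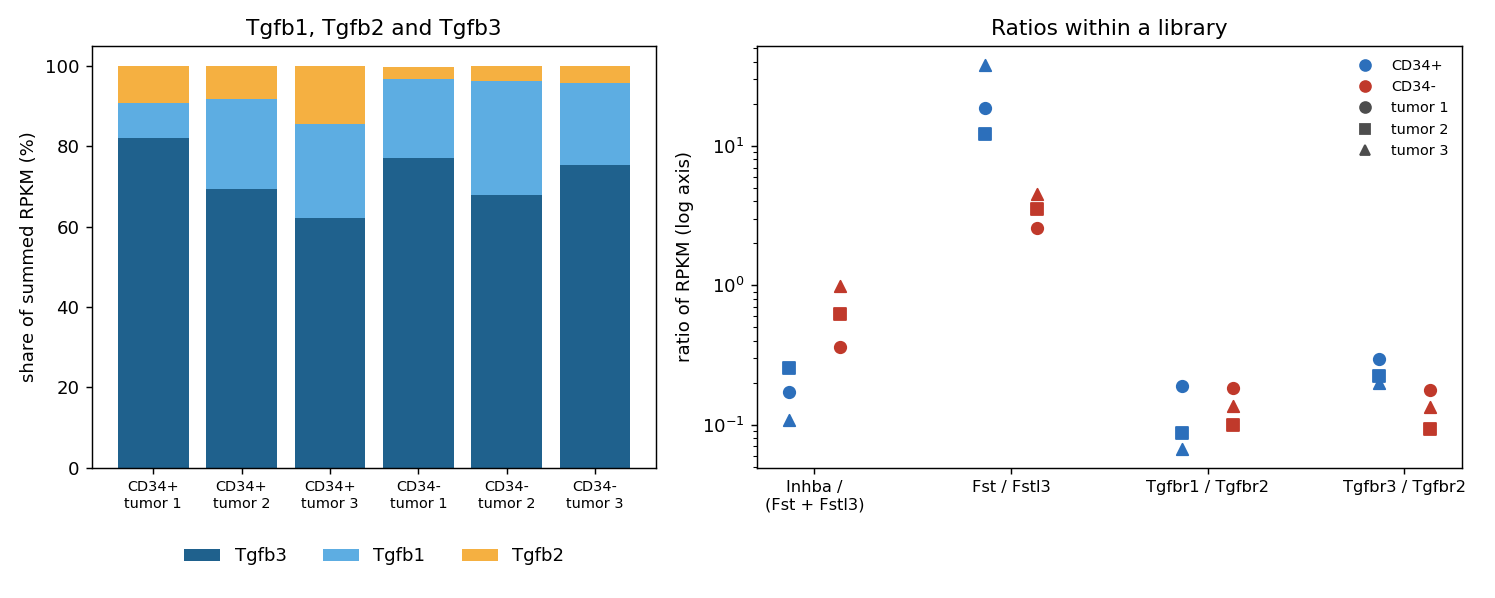
Left, share of Tgfb1, Tgfb2 and Tgfb3 in their summed RPKM for each library, in percent from 0. Right, ratios of RPKM within a library on a log axis, with CD34 positive in blue, CD34 negative in red and marker shape for the tumor. The Tgfb2 share is at most 4.17% in the negative and at least 8.14% in the positive libraries, and Tgfbr1 over Tgfbr2 is the ratio whose groups overlap.

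The rest of the pathway was counted over 5 lists, with 77 genes tested. None of them passed limma-voom without the block, where 18 were higher and 5 lower at an unadjusted p under 0.05, against 7.23% and 7.10% of all tested genes. On these genes edgeR without the block also called 0, against 0.0606% of all tested genes, and DESeq2 called 9, against 4.54%. With the block 17 rose and 6 fell, against 4.32% and 4.25% of all tested genes. Of 7 other TGF-beta and activin receptors tested, 1 rose and 6 did not pass, with a median log2 fold change of 0.02 without the block. The gene that rose was Eng (endoglin), a TGF-beta co-receptor of the betaglycan family, whose mean was 48.7 CPM in the positive and 92.0 CPM in the negative libraries (0.93 ± 0.15 with the block). Endoglin thus rose where its relative Tgfbr3 fell. Of 10 further ligands and antagonists, 6 could be tested and none passed, with a median of 0.21.

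Genes that hold TGF-beta latent or release it moved in both directions. Of 22 tested, 7 rose, 3 fell and 12 did not pass, where 4.32% of all tested genes rose and 4.25% fell. Their median log2 fold change was 0.20 without the block. The latent TGF-beta binding proteins were split: Ltbp2, which unlike its relatives does not carry latent TGF-beta, rose by 2.21 ± 0.49, and Ltbp1 fell by 2.04 ± 0.14 on the log2 scale. Ltbp1 had 42.1, 41.7 and 152 CPM in the negative and 157.5, 215 and 554 CPM in the positive libraries, without overlap. Ltbp2 overlapped between the groups and its within-tumor differences were 1.18, 1.16 and 4.26. Integrin beta subunits were split as well, as Itgb5 rose by 1.42 ± 0.14 (mean 1225 against 472 CPM) and Itgb3 fell by 0.99 ± 0.15 (45.0 against 92.0 CPM). Lrrc32 (GARP), which tethers latent TGF-beta at the cell surface, rose by 0.86 ± 0.13, from a mean of 137 to 248 CPM. The small proteoglycans that bind TGF-beta also diverged, with Bgn up by 0.99 ± 0.18 and Dcn, which fell by 1.12 ± 0.13. The remaining calls, all higher, were Emilin1, Ltbp3 and Furin. With edgeR and the block 6 of the 10 calls were made, and Ltbp2, Bgn, Ltbp3 and Furin were not among them.

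Of 15 SMADs and their regulators, 0 passed in limma-voom without the block, against 0.121% of all tested genes. With the block 0 passed as well, where 4.32% of all tested genes rose and 4.25% fell. In edgeR with the block 0 passed, against 3.87%. A count of 0 in 15 is close to these shares. An unadjusted p under 0.05 without the block was reached by 3, against 14.3% of all tested genes. Their median log2 fold change was 0.02. Among genes chosen for mention after their values were seen, the signal carriers Smad2, Smad3 and Smad4 had log2 fold changes of 0.13, -0.12 and 0.07 with the block.

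Of 27 TGF-beta target genes tested, 9 rose, 3 fell and 15 did not pass, where 4.32% of all tested genes rose and 4.25% fell. The median log2 fold change of the targets was 0.32 without the block. Those with the largest increases were Cdkn2b (1.69 ± 0.29), a cell cycle inhibitor, Tagln (1.54 ± 0.37), a contractile protein, Pmepa1 (1.34 ± 0.18), a feedback inhibitor of SMAD signaling, and Lrrc15 (1.26 ± 0.19), a CAF surface protein. Lrrc15 was put on the list with the study's own use of these libraries known, and is not independent evidence of the direction. Pmepa1 had 709, 683 and 717 CPM in the negative and 371, 299 and 194 CPM in the positive libraries. Cdkn2b had 58.6, 84.5 and 72.3 CPM in the former and 23.9, 34.3 and 8.47 CPM in the latter, and neither gene overlapped between the groups. Tagln did overlap, and its log2 differences within tumors 1, 2 and 3 were 0.63, 0.90 and 2.98. Those that fell were Tgfbi (by 1.51 ± 0.24), Cthrc1 (by 1.31 ± 0.18) and Fn1 (by 0.80 ± 0.17), all secreted proteins of the matrix. Cthrc1 had means of 118 and 307 CPM in CD34 negative and positive CAFs. The feedback genes Smad7 and Skil, named here after their values were seen, did not pass (0.20 and 0.26 with the block). With edgeR and the block 5 of the 12 target calls were made, Tagln, Tgfbi and Fn1 not among them. DESeq2 with the block did not call Tagln either (adjusted p = 0.158).

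**Figure D5:**
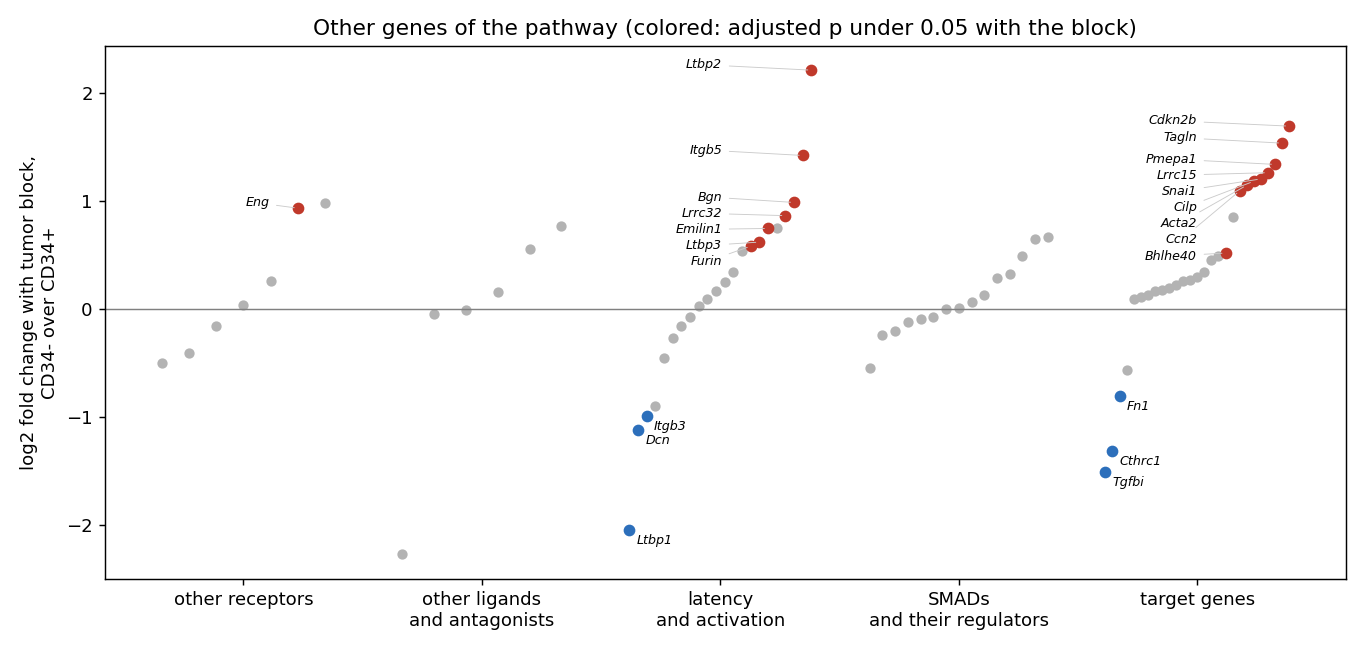
Log2 fold change with the tumor block for every tested gene of 5 other pathway lists, CD34 negative over CD34 positive, on a linear axis. Each point is a gene, ordered by value within its list, with genes past an adjusted p of 0.05 in red (higher) or blue (lower) and the rest in gray. Calls in both directions are seen for latency and activation genes (7 and 3) and for target genes (9 and 3), and none for SMADs. Of all tested genes 4.32% were called higher and 4.25% lower.

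Markers of other cells were read beside these differences. The 6 pericyte markers summed to 199, 237 and 218 CPM in negative libraries 1, 2 and 3 and to 187, 85.6 and 112 in the positive ones. This sum was higher in the negative libraries without overlap, like some of the genes that rose, but differed little in tumor 1. With the block Notch3, Cspg4 and Mcam rose and Kcnj8 and Abcc9 fell, Rgs5 did not pass, and none of the 6 was at 0 in a library. Of all tested genes 4.32% rose and 4.25% fell with the block. Endothelial markers summed to 11.7 to 31.9 CPM in the negative and 55.9 to 128 in the positive libraries. Most of that sum was Tek, the only 1 of 6 that passed, at means of 8.46 and 76.7 CPM, while Cdh5 and Emcn were at 0 in 1 and 3 libraries. Without Tek the sum of the other 5 overlapped, at 6.09 to 19.3 CPM in the negative and 7.54 to 27.8 CPM in the positive libraries, and the median log2 fold change over the 6 was 0.84 without the block. Of this list only Tek, like Fst and Tgfbr3, was lower in every negative library than in any positive one. This held for 10.0% of all tested genes. None of 8 epithelial markers passed with the block. In the negative library of each tumor 6 of 8 were the higher, against 22.8% of all tested genes. The sum of the 8 was 61.0 to 161 CPM in the negative and 22.8 to 144 in the positive libraries. The part of these cells in the differences of the 10 genes was not tested. Without tumor 3, whose negative library had the fewest detected genes, the block called 7 of the 10 genes, 4 higher and 3 lower. That fit called 2019 of all 15514 genes it tested.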

How the data were processed

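RNA from CD34 negative and CD34 positive GFP+ CAFs of 3 raGFP-Wnt1 mammary tumors was sequenced after poly(A) library preparation, with 1 library per fraction and tumor. Per the study's methods and the labels, the authors used Rsubread (featureCounts) to align reads to GRCm38 (mm10) and to count them for each NCBI gene. The deposited values are raw counts, not normalized, with replicates kept apart. Strand and multimapping settings are not given in the sources used here, so overlapping genes carry an uncertainty. Whether the 3 tumors came from separate mice is not stated. The p-values of fits without the block measure the spread between these libraries within a group. With the block they measure the spread of the differences within these tumors.

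Genes were kept with filterByExpr (minimum count 10), scaled by TMM and compared with voom and limma, all 6 libraries in 1 fit, two-sided, with Benjamini-Hochberg adjustment over 14855 genes and a threshold of 0.05. These steps are named in the study's methods, which do not say whether the tumor was a term, and the main fit has none. The fit with the tumor as a replicate block is given beside the main fit because each number is 1 tumor. The main fit called 3 genes higher in CD34 negative CAFs, and the fit with the block called 642. The paper reports far more genes up in CD34 negative CAFs than those 3. Its list thus did not come from the main fit at this threshold. Which model and threshold gave that list was not tested. Across genes, the 2 libraries of tumors 1, 2 and 3 deviated together from their group means, with correlations of 0.373, 0.35 and 0.219. Between libraries of a group, chi-square per gene was 133 to 239, so no library repeated another. CPM used the filtered library size and TMM factor (0.9415 to 1.042), summed markers the library total, and RPKM the gene length in the count table. Within-tumor differences are of voom log2 CPM (offset 0.5 counts). Libraries held 16238059 to 86609267 counts, and the lowest count of the 10 genes in any library was 78 (Fstl3, CD34 positive library 1). Shares and ratios were compared with exact permutation tests over all 6 libraries, which did not use the pairing by tumor.

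The 10 genes, the pathway and marker lists and the tests were chosen with earlier results of these data known. Named were the 10 genes and, from each pathway list, up to 4 called genes per direction with the largest change with the block. Alternatives were edgeR, DESeq2, limma-trend (prior count 2), sample quality weights, the tumor as a random effect, other normalizations and filters, and leaving out libraries or tumors. R 4.3.3, edgeR 4.0.16, limma 3.58.1, DESeq2 1.42.0, Python 3.11.15, pandas 2.3.3 and matplotlib 3.10.9 were used. The fits were tested on simulated data. Some list genes enter the counts but are not reported here on their own.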

Additional observations from a re-analysis of the deposited data

How the results depend on the processing

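Without a tumor term 18 of all genes, 0 of the 10 genes and 0 of the 77 other pathway genes passed. The replicate block gave 1273, 6 and 23, and left the other 4 of the 10 genes on the same side of the threshold. The tumor as a random effect gave 703, 4 and 13. DESeq2 gave 674, 5 and 9, sample quality weights 161, 1 and 1, edgeR with the replicate block 575, 3 and 12, and DESeq2 with the replicate block 1730, 7 and 21. With the block and without tumor 1, 2 or 3, the counts were 1134, 851 and 2019 for all genes, 7, 6 and 7 for the 10 genes, and 24, 19 and 28 for the other pathway genes. Library totals without TMM gave 32 calls over all genes and edgeR 9. Leaving out a library or a tumor without the block gave 0 to 86 calls over all genes, 0 for the 10 genes, and 0 to 2 for the other pathway genes. The log2 fold change of Tgfbr2 changed sign in edgeR (-0.0221), in DESeq2 (-0.0329) and with the block without tumor 1 (-0.0907) or tumor 2 (-0.009), and ran from -0.2725 to 0.3449 when libraries or tumors were left out. The other 9 genes kept their direction under all 24 alternatives. Leaving out a library moved the difference in the Tgfb1 share, 4.71 percentage points, between -0.0462 and 7.32, and that in the Tgfb3 share, 2.19, between -2.32 and 7.62. Without length scaling the difference in the Tgfb2 share, -6.90, was -9.65, and that in the Tgfb3 share was 5.99. The causes of these changes were not tested. With 2 tumors left, the block rests on 1 residual degree of freedom per gene and the spread pooled over genes. Fstl3 had the lowest level of the 10 genes, at 3.00 CPM in positive library 3.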
